A study of Mus musculus with 12 samples.

Results

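Zinc-finger genes whose symbol is Zfp followed by a digit were examined in mouse embryonic stem (ES) cells exposed to hydrogen peroxide. Members were the genes whose only symbol in the platform annotation of the MG_U74Av2 array begins in this way. The rule uses no measured value, but it was chosen with earlier results of these data known. The rule gave 89 genes on 116 probe sets, of the 8251 genes that the 12488 probe sets of the array name singly. A probe set is a set of short oligonucleotides that together read 1 transcript. After a filter on dim probe sets, 77 of the 89 genes (86.5%) were tested, against 77.7% of all genes.

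The cells were clone C2, a single clone of the E14tg2a ES cell line that carries 2 targeted I-SceI sites, recognition sequences of an endonuclease used to cut DNA at a chosen place. All 3 groups share this genotype. Cells received 5 mM hydrogen peroxide for 30 min (n = 5 arrays) or 100 µM hydrogen peroxide for 15 min (n = 4), both in PBS and followed by 1 h of recovery in maintenance medium, or were kept in PBS alone (n = 3). Dose and exposure time differ together. How long the PBS cells were held, and whether they too returned to medium, is not given in the sources used here. Whether replicates came from separate cultures is not stated in the labels. The p-values therefore measure the spread among these particular arrays, and that spread may be technical. All comparisons share arrays: both comparisons with PBS use the same 3 PBS arrays, and each treated group enters a pair of comparisons.

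Most Zfp genes encode proteins with tandem C2H2 zinc fingers, small folds in which cysteines and histidines hold a zinc ion and which together read a DNA sequence. Many of them carry a KRAB domain, which recruits the corepressor TRIM28 (KAP1) and through it histone methylation and heterochromatin, and such KRAB genes lie in clusters of near-identical copies on mouse chromosomes. Zfp42, better known as Rex1, is a marker of naive ES cells. The Zfp36 family is named alike but differs in kind: its CCCH zinc fingers bind AU-rich elements in messenger RNA and recruit deadenylases that start its decay.

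Promoter sequences are shown for 5 members: Zfp42 and Zfp36, which are described apart, and Zfp36l1, Zfp281 and Zfp322a, which were chosen after their values were seen because their differences between groups are described in detail. Each is the 250 bases before the annotated gene start, taken from RefSeq (GRCm38.p6) and written 5′ to 3′ in the direction of transcription. Capitals mark the motif matches found by letter search on both strands. The motifs with a match in these windows were the GC box GGGCGG, the CCAAT box CCAAT, the TATA box TATAAA, the octamer ATTTGCAT bound by POU factors, and the CArG box, which serum response factor binds. The other motifs named below were searched in the same way and had no match in these 5 windows. The windows lie at chr8:43307010-43307259, minus strand (Zfp42), chr7:28379229-28379478, minus strand (Zfp36), chr12:80113014-80113263, minus strand (Zfp36l1), chr1:136624651-136624900, plus strand (Zfp281) and chr13:23369209-23369458, minus strand (Zfp322a).
Zfp42: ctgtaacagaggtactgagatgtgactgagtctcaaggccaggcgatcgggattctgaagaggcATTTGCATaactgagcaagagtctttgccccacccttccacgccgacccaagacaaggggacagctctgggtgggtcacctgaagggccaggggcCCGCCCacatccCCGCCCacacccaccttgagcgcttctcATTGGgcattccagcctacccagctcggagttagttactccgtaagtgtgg
Zfp36: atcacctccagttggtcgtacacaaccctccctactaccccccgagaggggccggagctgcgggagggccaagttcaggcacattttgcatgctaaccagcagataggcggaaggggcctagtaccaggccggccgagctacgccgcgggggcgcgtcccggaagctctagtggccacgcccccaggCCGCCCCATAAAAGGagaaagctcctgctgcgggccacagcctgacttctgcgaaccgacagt
Zfp36l1: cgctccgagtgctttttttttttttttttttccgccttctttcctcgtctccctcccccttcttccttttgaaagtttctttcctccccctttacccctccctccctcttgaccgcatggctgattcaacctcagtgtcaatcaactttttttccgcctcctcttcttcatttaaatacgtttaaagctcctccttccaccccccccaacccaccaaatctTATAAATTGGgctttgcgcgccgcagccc
Zfp281: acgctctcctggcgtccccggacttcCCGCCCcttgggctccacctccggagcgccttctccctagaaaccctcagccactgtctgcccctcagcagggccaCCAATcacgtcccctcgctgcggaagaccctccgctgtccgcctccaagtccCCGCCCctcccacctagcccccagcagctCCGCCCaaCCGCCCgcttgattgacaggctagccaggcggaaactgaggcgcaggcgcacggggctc
Zfp322a: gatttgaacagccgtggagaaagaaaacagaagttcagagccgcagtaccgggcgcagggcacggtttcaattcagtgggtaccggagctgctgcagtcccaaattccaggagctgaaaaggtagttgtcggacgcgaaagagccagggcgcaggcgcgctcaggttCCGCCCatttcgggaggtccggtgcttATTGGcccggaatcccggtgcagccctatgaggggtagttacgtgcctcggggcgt

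In the Zfp42 window the octamer match began 186 bases before the start, GC box matches began at 91 and 79 bases and a CCAAT match at 51 bases. In the Zfp36 window a CArG match began 58 bases before the start and shared 1 base with a GC box match that began at 63 bases. The Zfp36l1 window held a TATA match that began at 29 bases and shared 1 base with a CCAAT match that began at 24 bases. Zfp281 had 4 GC box matches and Zfp322a had 1, each with 1 CCAAT match. Of the 89 members, 73 had a promoter entry. The GC box was found in 53.4% of their windows, against 32.9% of all 27025 windows in the table, and the CCAAT box in 42.5% against 34.5%. The ETS site CCGGAAGT was found in 9.59% against 2.93%. TATA matches were found in 6.85% of the Zfp windows against 13% of all windows, CArG matches in 2.74% against 1.4%, and the octamer in 2.74% against 1.61%. A share of 2.74% is only 2 of the 73 windows, among them that of Zfp36 for CArG and that of Zfp42 for the octamer. The CRE motif TGACGTCA was found in none of the 73 Zfp windows and in 1.62% of all windows, and AP-1 (TGACTCA) in 2.74% against 4.43%. Antioxidant response elements (TGACNNNGC) were found in 11% against 10.1%, and heat shock elements (GAANNTTC) in 2.74% against 6.78%. The E-box (CACGTG) was found in 9.59% against 6.05%, the YY1 site (AAGATGGC) in 1.37% against 1.59% and the NRF1 site in 4.11% against 0.781%. For YY1 and NRF1 these shares are 1 and 3 of the 73 windows. The Zfp windows had a median GC content of 57.2% against 52% and a median of 14 CpG dinucleotides against 6. A match describes letters in these windows, not binding.

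ES cell markers were present in every group: the summed signal of 8 of them was 26513 to 31651 on the 5 mM arrays, 27271 to 32470 on the 100 µM arrays and 22275 to 25361 on the PBS arrays, and none had a group mean below the offset used for log2 values (10.1 signal units). Markers of primitive endoderm, an extraembryonic lineage of the blastocyst, were summed over 23 genes. Their sums were 2267 to 2462 at 5 mM, 12926 to 14302 at 100 µM and 9081 to 13935 in PBS. Foxq1 was below the offset at 5 mM and Hnf4a in PBS. Fibroblast (feeder) markers summed to 1721 to 2252 at 5 mM, 2053 to 2447 at 100 µM and 1637 to 1870 in PBS over 21 genes, and Lox and Postn were below the offset in all 3. In such bulk samples, fewer cells of a type and less RNA per cell cannot be told apart. The arrays share 1 scaling, with trimmed means that agree within 0.0196%. The brightest probe set read 19733 to 34685 on the 5 mM arrays, 14976 to 24225 on the 100 µM arrays and 7206 to 8904 on the PBS arrays, so bright genes are compared on unlike ranges. For the Actb control probe sets, the 3′ signal divided by the 5′ signal was 1.99 on PBS replicate 1 and 0.871 to 1.49 on the other arrays.

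Zfp42 did not pass the test in any comparison. Its signal was 3115, 3215, 2634, 2872 and 2663 on the 5 mM arrays, 3239, 2812, 3066 and 2521 on the 100 µM arrays and 2787, 2925 and 3299 on the PBS arrays. The 3 groups overlapped throughout. The group means were 2899.9 ± 261 on the 5 mM arrays (SD, n = 5), 2909.7 ± 313 on the 100 µM arrays (n = 4) and 3004 ± 265 on the PBS arrays (n = 3). In limma the log2 difference was -0.05 for 5 mM minus PBS (95% interval -0.31 to 0.20; adjusted p = 0.826), -0.05 for 100 µM minus PBS (-0.31 to 0.22; adjusted p = 0.82) and -0.00 for 5 mM minus 100 µM (-0.24 to 0.23; adjusted p = 0.986). These intervals span up to 1.16-fold higher and, at the other end, 0.804 times the level against PBS. Among the 282 probe sets with a PBS signal of 2000 to 4000, the range that holds Zfp42, the median difference was 0.10, -0.08 and 0.22 in these comparisons. Of 29 other pluripotency genes tested, 6 were higher and 3 lower at 5 mM than in PBS (1 higher and 3 lower after median scaling), and 11 were higher and 5 lower at 100 µM than in PBS (5 higher and 6 lower after median scaling). At 5 mM, 7 were higher and 11 lower than at 100 µM. In these comparisons 31%, 55.2% and 62.1% of the 29 passed, against 12.2%, 24.6% and 29% of all tested genes. Their median log2 change was 0.10 for 5 mM minus PBS (-0.03 after quantile normalization), 0.32 for 100 µM minus PBS and -0.19 for 5 mM minus 100 µM, against -0.01, 0.04 and -0.04 over all tested genes. The 9 calls at 5 mM against PBS became 3 without PBS replicate 2 or 3. Klf4, a naive pluripotency factor and immediate-early gene, averaged 1029 at 5 mM, 3379.7 at 100 µM and 1201 in PBS, with log2 changes of 1.49 for 100 µM minus PBS and -1.71 for 5 mM minus 100 µM. Dppa3, a maternal factor expressed in naive cells, averaged 121 at 5 mM, 23.4 at 100 µM and 82.0 in PBS, with log2 -1.51 for 100 µM minus PBS and log2 2.01 for 5 mM minus 100 µM. Lefty1, an inhibitor of Nodal signalling, rose at 5 mM by log2 1.92 against PBS and by log2 1.95 against 100 µM.

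Of the 3 measured members of the Zfp36 family, Zfp36l1 and Zfp36l2 were higher at 100 µM than in either other group, and Zfp36 passed in no comparison. Zfp36 (tristetraprolin), the founding member and a classic immediate-early gene, read 159, 57.0, 138, 151 and 136 on the 5 mM arrays, 145, 196, 209 and 156 on the 100 µM arrays and 90.8, 147 and 138 on the PBS arrays. All groups overlapped, and 5 mM replicate 2 was below all other arrays. Its log2 value was -0.01 for 5 mM minus PBS (95% interval -0.58 to 0.55; adjusted p = 0.985), 0.48 for 100 µM minus PBS (-0.12 to 1.07; adjusted p = 0.237) and -0.49 for 5 mM minus 100 µM (-1.01 to 0.03; adjusted p = 0.156), so Zfp36 passed in none of them.

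Zfp36l1, a broadly expressed family member, read 481, 460.5, 484, 852 and 432 on the 5 mM arrays, 1416, 787, 853 and 1004 on the 100 µM arrays and 783, 459.5 and 417 on the PBS arrays. Every 100 µM array lay above every PBS array, with PBS replicate 1 close below the lowest, while 5 mM replicate 4 lay within the 100 µM range. It rose 1.84-fold at 100 µM against PBS, a log2 change of 0.88 ± 0.25 (SE) (adjusted p = 0.0192). That call was lost without 100 µM replicate 1 or PBS replicates 2 or 3 (adjusted p = 0.0586 to 0.0938), or after median scaling (adjusted p = 0.0691). At 5 mM it was lower than at 100 µM by a log2 change of -0.90 ± 0.22 (SE) (adjusted p = 0.00632), and the value for 5 mM minus PBS was log2 -0.02 (adjusted p = 0.971). Zfp36l2, which is needed for female fertility and blood formation in mice, read 506, 478, 506, 451 and 417 on the 5 mM arrays, 660.4, 629, 633 and 839.9 on the 100 µM arrays and 425, 589 and 492 on the PBS arrays on its brighter tested probe set. The 100 µM arrays lay above all others. Its log2 change was 0.45 ± 0.14 (SE) for 100 µM minus PBS (adjusted p = 0.0301) and -0.53 ± 0.13 (SE) for 5 mM minus 100 µM (adjusted p = 0.00472), with log2 -0.08 (adjusted p = 0.756) for 5 mM minus PBS. The first of these was lost without 100 µM replicate 4 or PBS replicates 1 or 3 (adjusted p = 0.0799 to 0.12), or after median scaling, without a variance trend or with only the compared groups (adjusted p = 0.0529 to 0.245), and its log2 value was 0.27 after median scaling. A dimmer probe set of Zfp36l2 averaged 167 at 5 mM, 159.7 at 100 µM and 166 in PBS, with log2 values of -0.06 for 100 µM minus PBS and 0.06 for 5 mM minus 100 µM. Zfp36l3 was not analysed here.

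**Figure D1:**
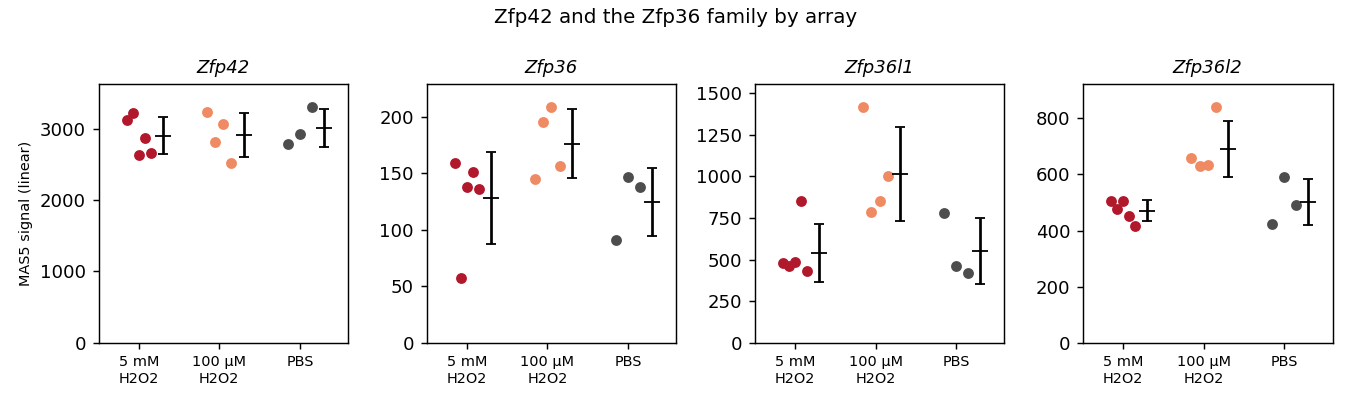
MAS5 signal (linear axis from 0) of Zfp42, Zfp36, Zfp36l1 and Zfp36l2 on each array, with 5 mM, 100 µM and PBS from left to right; points are arrays and bars are mean ± SD. Zfp42 lay between 2521 and 3299 on all arrays, while Zfp36l1 and Zfp36l2 had their highest group means at 100 µM.

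Of 26 tested genes of deadenylation and messenger RNA decay, 5 were higher and 1 lower at 5 mM than in PBS, 3 higher and 4 lower at 100 µM than in PBS, and 5 higher and 3 lower at 5 mM than at 100 µM. These are 23.1%, 26.9% and 30.8% of the 26, against 12.2%, 24.6% and 29% of all tested genes, so the shares at 100 µM against PBS and between the doses were near the background. The first split was 4 and 2 after quantile normalization. The median log2 change of the 26 was -0.02 for 5 mM minus PBS (0.04 after quantile normalization), 0.06 for 100 µM minus PBS (-0.12 after median scaling) and 0.03 for 5 mM minus 100 µM. The 6 calls at 5 mM against PBS became 3 without PBS replicate 1 or 3, and the 7 at 100 µM against PBS became 4 without PBS replicate 3 or 100 µM replicate 1 or 2. Ddx6, a helicase of decapping complexes, rose against PBS by log2 1.80 at 5 mM and log2 1.80 at 100 µM. Tob1, an antiproliferative protein that brings deadenylases to messenger RNAs, rose by log2 1.29 at 100 µM against PBS and was lower by a log2 change of -0.65 at 5 mM than at 100 µM. Pan2, a deadenylase subunit, changed by log2 0.95 for 100 µM minus PBS and log2 -1.01 for 5 mM minus 100 µM, and Lsm4, of the decay-linked LSM ring, by log2 -0.66 and log2 0.92 in these comparisons. Among 32 other immediate-early genes, 7 were higher and 3 lower at 5 mM than in PBS, 15 higher and 4 lower at 100 µM than in PBS, and 2 higher and 12 lower at 5 mM than at 100 µM. These are 31.2%, 59.4% and 43.8% of the 32, against 12.2%, 24.6% and 29% of all tested genes. The 10 calls at 5 mM against PBS became 5 without PBS replicate 2. Their median log2 change was 0.12, 0.57 and -0.34 in these comparisons, against -0.01, 0.04 and -0.04 over all tested genes. Fos, a subunit of the AP-1 factor, averaged 485 at 5 mM, 743 at 100 µM and 80.8 in PBS. Plk2, a stress-induced kinase, averaged 887 at 5 mM, 3227 at 100 µM and 863 in PBS, and the stress factor Atf3 averaged 94.97 at 5 mM, 302 at 100 µM and 81.6 in PBS.

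At 5 mM against PBS, 4 of the 77 tested Zfp genes were higher (Zfp105, Zfp276, Zfp59 and Zfp94) and 4 lower (Zfp532, Zfp688, Zfp692 and Zfp982), while 69 did not pass. That is 10.4% of the members, against 12.2% of all 6414 tested genes (5.36% higher and 6.84% lower), so the members' share was near the background. Their median log2 change was 0.07, against -0.01 over all genes. After median scaling, 3 were higher and 6 lower. Leaving out 1 array turned the 8 calls into 2 without PBS replicate 2, 5 without PBS replicate 3, 5 without 5 mM replicate 1 and 4 without 5 mM replicate 2.

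Zfp105, the counterpart of human ZNF35, read 395, 374, 377, 370.1 and 288 on the 5 mM arrays, 218, 225, 214 and 216 on the 100 µM arrays and 295, 152 and 158 on the PBS arrays. The 5 mM arrays overlapped PBS replicate 1 and lay above all 100 µM arrays. It rose 1.82-fold against PBS, a log2 change of 0.86 ± 0.18 (SE) (adjusted p = 0.00675; 0.0549 without PBS replicate 2), and was higher than at 100 µM by log2 0.69 (adjusted p = 0.00609). Zfp59, a chromosome 7 gene, read 28.1, 30.6, 39.0, 22.8 and 28.0 on the 5 mM arrays, 32.9, 43.7, 45.0 and 34.7 on the 100 µM arrays and 1.80, 5.54 and 4.11 on the PBS arrays. All treated arrays were above all PBS arrays, and the PBS arrays were below the offset, so the size of the difference depends on the offset. With it, the log2 change was 1.51 (adjusted p = 0.000948) at 5 mM and log2 1.82 (adjusted p = 0.000205) at 100 µM, both against PBS. With a floor in place of the offset these were 1.54 and 1.94, and with 4 times the offset 0.66 and 0.85. Zfp276 read 34.7, 46.7, 30.7, 17.5 and 33.2 on the 5 mM arrays, 31.0, 69.1, 17.1 and 42.2 on the 100 µM arrays and 3.60, 10.4 and 10.2 on the PBS arrays, with a PBS mean of 8.06, below the offset. It changed by log2 1.22 (adjusted p = 0.0302) at 5 mM and log2 1.38 (adjusted p = 0.0112) at 100 µM against PBS, and the call at 5 mM was lost without 5 mM replicates 1, 2 or 5 or PBS replicates 1, 2 or 3 (adjusted p = 0.0542 to 0.102), or with 4 times the offset (adjusted p = 0.0558). With 4 times the offset the Zfp276 values were 0.58 at 5 mM and 0.69 at 100 µM. Zfp94 read 587 ± 117 on the 5 mM arrays (SD, n = 5), 566 ± 240.1 on the 100 µM arrays (n = 4) and 304 ± 92.6 on the PBS arrays (n = 3), with changes of log2 0.95 (adjusted p = 0.0336) at 5 mM and log2 0.82 (adjusted p = 0.0469) at 100 µM against PBS. For 5 mM this was lost without 5 mM replicates 1, 2, 4 or 5 or PBS replicates 1 or 2 (adjusted p = 0.0516 to 0.175), or after median scaling or without a variance trend (adjusted p = 0.0643 to 0.0675), and for 100 µM without 5 mM replicates 1, 2, 4 or 5, 100 µM replicates 2 or 4 or PBS replicates 1 or 2 (adjusted p = 0.0513 to 0.208), or after median scaling, with no filter, without a variance trend or with only the compared groups (adjusted p = 0.0678 to 0.143). A much dimmer probe set of Zfp94 read 24.6, 11.1, 34.3, 8.23 and 27.8 on the 5 mM arrays. It read 5.53, 16.4, 12.9 and 13.9 on the 100 µM arrays and 18.0, 9.27 and 24.5 on the PBS arrays, so the groups overlapped.

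Zfp532, whose human counterpart is a fusion partner of NUTM1 in NUT carcinoma, read 124, 139, 132, 159 and 161 on the 5 mM arrays, 304, 249, 206 and 224 on the 100 µM arrays and 212, 226 and 234 on the PBS arrays. The 5 mM arrays lay below all others. It fell 1.53-fold against PBS, a log2 change of -0.62 ± 0.15 (SE) (adjusted p = 0.0166), and missed the threshold without PBS replicates 2 or 3 (adjusted p = 0.0651 to 0.0661). Against 100 µM the change was log2 -0.73 (adjusted p = 0.00107). Zfp692 read 101, 133, 121, 108 and 123 on the 5 mM arrays, 155, 117, 109.7 and 214 on the 100 µM arrays and 180.0, 278 and 265 on the PBS arrays. The 5 mM arrays lay below the PBS arrays, and 2 of the 100 µM arrays lay above the whole 5 mM range. It fell by a log2 change of -0.97 ± 0.21 (SE) at 5 mM (adjusted p = 0.00743), a call lost without PBS replicate 2 (adjusted p = 0.0529), and by log2 -0.68 (adjusted p = 0.0323) at 100 µM. At 100 µM the Zfp692 call was lost without 100 µM replicates 2 or 3 or PBS replicates 2 or 3 (adjusted p = 0.0848 to 0.132), or with only the compared groups (adjusted p = 0.0697). Zfp688 averaged 164 ± 12.6 on the 5 mM arrays (SD, n = 5), 173 ± 25.7 on the 100 µM arrays (n = 4) and 245 ± 29.2 on the PBS arrays (n = 3) and was lower than in PBS at both doses, with log2 -0.54 (adjusted p = 0.0283) at 5 mM and log2 -0.48 (adjusted p = 0.0358) at 100 µM. The 5 mM call was lost without 5 mM replicates 2 or 3 or PBS replicates 2 or 3 (adjusted p = 0.0511 to 0.129), and the 100 µM call without 100 µM replicates 1 or 3 or PBS replicates 2 or 3 (adjusted p = 0.0665 to 0.139), or with only the compared groups (adjusted p = 0.073). Zfp982, read by a probe set shared with related genes and so uncertain, averaged 932 ± 162 on the 5 mM arrays (SD, n = 5), 1498 ± 216 on the 100 µM arrays (n = 4) and 1383 ± 242 on the PBS arrays (n = 3). Its change was log2 -0.57 (adjusted p = 0.0273) at 5 mM against PBS, lost without 5 mM replicates 1, 2 or 3 or PBS replicates 1 or 3 (adjusted p = 0.0509 to 0.109), or without a variance trend (adjusted p = 0.0583), and log2 -0.68 (adjusted p = 0.00194) against 100 µM. Closest to the threshold without passing were Zfp574 at log2 -0.84 (adjusted p = 0.0603), Zfp622, whose human counterpart acts in maturation of the large ribosomal subunit, at log2 0.36 (adjusted p = 0.0836), Zfp106 at log2 -0.65 (adjusted p = 0.0853), Zfp651 at log2 0.74 (adjusted p = 0.0858) and Zfp60 at log2 0.98 (adjusted p = 0.0887). Of these, Zfp574 passed under 5 alternatives, Zfp106 under 4, Zfp622 under 2, Zfp651 under 1 and Zfp60 under none. Another probe set of Zfp574 read 100, 100, 88.6, 134 and 134 on the 5 mM arrays. It read 55.8, 156 and 139 on the PBS arrays, so these groups overlapped. Beside these changes at 5 mM, 17 of 22 tested primitive endoderm markers were lower than in PBS, with a median of -2.24; their part in the changes of Zfp genes was not tested.

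At 100 µM against PBS, 15 of the 77 Zfp genes were higher, 6 were lower and 56 did not pass. These 21 genes are 27.3% of the members, against 24.6% of all tested genes (11.9% higher and 12.7% lower), a share near the background. The members' median log2 change was 0.24, against 0.04 over all genes. After median scaling of the arrays, 5 were higher and 9 lower, and with quantile normalization 12 were higher and 8 lower. Median scaling moved the median of all genes to -0.13 and that of the members to 0.06, and quantile normalization to -0.03 and 0.18, so the members' median stayed above that of all genes by 0.20 to 0.21. Leaving out 1 array turned the 21 calls into 9 without PBS replicate 2, 12 without PBS replicate 3, and 13 without 100 µM replicate 1 or 3. In this comparison 7 of 22 primitive endoderm markers were higher and 1 lower, with a median of 0.30 (5 passed without PBS replicate 2), and their part in the changes of Zfp genes was not tested.

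**Figure D2:**
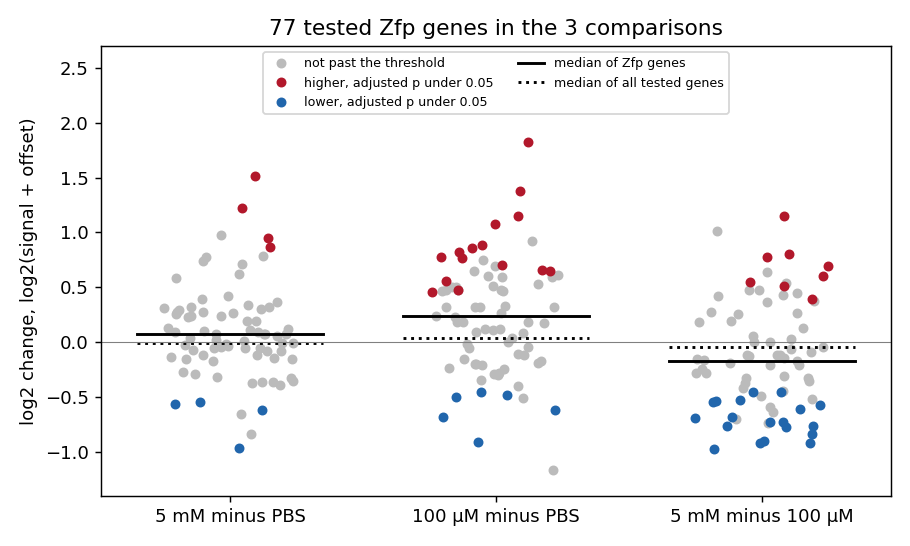
Log2 change (vertical axis) of each of the 77 tested Zfp genes for 5 mM minus PBS, 100 µM minus PBS and 5 mM minus 100 µM; coloured points have a limma adjusted p under 0.05, and lines are medians of the Zfp genes (solid) and of all tested genes (dotted). Of the members, 4 were higher and 4 lower at 5 mM against PBS, 15 and 6 at 100 µM against PBS, and 8 and 19 at 5 mM against 100 µM.

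Zfp281, a C2H2 factor that binds with the core pluripotency factors in ES cells and can repress Nanog, read 470.4, 487, 596, 813 and 563 on the 5 mM arrays, 965, 832, 1042 and 1106 on the 100 µM arrays and 513, 439 and 368 on the PBS arrays. All 4 of the 100 µM arrays were above every other array. It rose 2.22-fold at 100 µM, a log2 change of 1.15 ± 0.18 (SE) (adjusted p = 0.000351), and was lower at 5 mM than at 100 µM by a log2 change of -0.76 ± 0.16 (SE) (adjusted p = 0.00172). Both calls held under all 23 alternatives. The value for 5 mM minus PBS was log2 0.39 (adjusted p = 0.151). Nanog, read by a bright probe set, averaged 4959 at 5 mM, 5672 at 100 µM and 3461 in PBS. Against PBS its log2 change was 0.51 at 5 mM (adjusted p = 0.0123) and 0.71 at 100 µM (adjusted p = 0.00107). The Nanog call at 5 mM was lost after quantile normalization, after median scaling or without PBS replicate 2 or 3 (adjusted p = 0.0603 to 0.172). That at 100 µM held under every alternative. A relation between Nanog and Zfp281 was not tested.

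Zfp322a, which is needed for pluripotency in mouse ES cells, moved in the opposite direction. It read 425, 389.8, 423, 484 and 489.9 on the 5 mM arrays, 218, 255, 271 and 249 on the 100 µM arrays and 404, 319 and 343 on the PBS arrays. The 100 µM arrays lay below all others, while the 5 mM and PBS arrays overlapped. It fell by a log2 change of -0.50 ± 0.14 (SE) at 100 µM (adjusted p = 0.0151; 0.0592 without PBS replicate 1) and was higher at 5 mM than at 100 µM by log2 0.81 ± 0.12 (SE) (adjusted p = 0.000117). The value for 5 mM minus PBS was log2 0.31 (adjusted p = 0.139). Zfp57, the KRAB factor that protects methylation at imprinted loci, passed in no comparison. It had values of log2 -0.14 (adjusted p = 0.849) for 5 mM minus PBS, log2 0.59 (adjusted p = 0.304) for 100 µM minus PBS and log2 -0.74 (adjusted p = 0.132) for 5 mM minus 100 µM, with 95% intervals of -0.95 to 0.66, -0.25 to 1.43 and -1.47 to 0.00.

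Zfp568, a KRAB factor that represses a placental promoter of Igf2 in the mouse embryo, read 489, 567, 461, 518 and 420.0 on the 5 mM arrays, 817, 942, 887 and 741 on the 100 µM arrays and 635, 434 and 494 on the PBS arrays. Every 100 µM array was above all other arrays. It rose 1.63-fold at 100 µM, a log2 change of 0.70 ± 0.15 (SE) with an adjusted p of 0.0032, which missed the threshold after median scaling (adjusted p = 0.0511). At 5 mM it was lower than at 100 µM, at log2 -0.78 (adjusted p = 0.000349). Zfp131, a BTB-domain zinc-finger factor, read 131, 121, 196, 246 and 191 on the 5 mM arrays, 489, 171, 274 and 421 on the 100 µM arrays and 118, 148 and 169 on the PBS arrays. The 100 µM arrays ranged widely, and all were above the PBS arrays. Its log2 change was 1.08 ± 0.30 (SE) (adjusted p = 0.0169). The Zfp131 call was lost without 100 µM replicate 1 or PBS replicate 1 (adjusted p = 0.0518 to 0.0615).

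Zfp277, which in mouse fibroblasts recruits Polycomb proteins to the Ink4a/Arf locus, read 181, 162, 186, 153 and 137 on the 5 mM arrays, 92.5, 131, 101 and 113 on the 100 µM arrays and 262, 193 and 191 on the PBS arrays. The 100 µM arrays were the lowest, the PBS arrays the highest, and the 3 groups did not overlap. It fell 1.88-fold at 100 µM, a log2 change of -0.91 ± 0.18 (SE) (adjusted p = 0.00182) that held under all 23 alternatives, and was higher at 5 mM than at 100 µM at log2 0.54 (adjusted p = 0.0151). A dimmer probe set of Zfp277 had a log2 value of 0.46 for 100 µM minus PBS (adjusted p = 0.342). That probe set read 26.2, 11.8, 19.4, 36.5 and 38.2 at 5 mM and 52.2, 23.6, 55.8 and 30.9 at 100 µM. These groups overlapped, with the highest readings at 100 µM. Zfp598, a ubiquitin ligase that marks collided ribosomes, read 816, 916, 675, 818 and 871 on the 5 mM arrays, 731, 664, 477 and 925 on the 100 µM arrays and 982, 1204 and 983 on the PBS arrays. All 100 µM arrays lay below all PBS arrays, 100 µM replicate 4 by a narrow margin. It fell by 0.62 on the log2 scale (adjusted p = 0.0199). The Zfp598 call was lost without 100 µM replicate 3 or PBS replicate 2 (adjusted p = 0.0533 to 0.0911). Zfp740 averaged 441 ± 29.5 on the 5 mM arrays (SD, n = 5), 334 ± 35.6 on the 100 µM arrays (n = 4) and 463 ± 87.0 on the PBS arrays (n = 3) and fell at 100 µM by a log2 change of -0.45 (adjusted p = 0.0288). The Zfp740 call was lost without 100 µM replicates 1, 2 or 3 or PBS replicate 2 (adjusted p = 0.0522 to 0.17), or with only the compared groups (adjusted p = 0.0664).

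**Figure D3:**
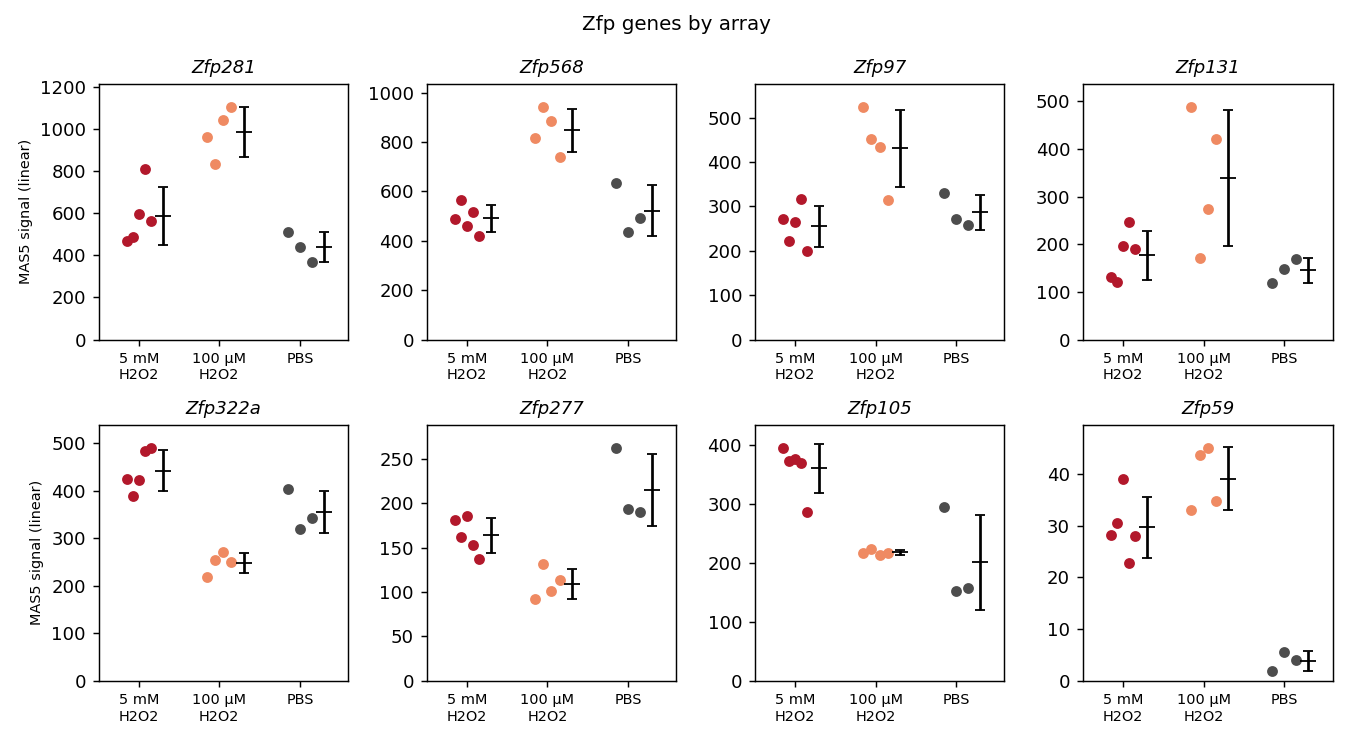
MAS5 signal (linear axis from 0) of 8 Zfp genes on each array, with 5 mM, 100 µM and PBS from left to right; points are arrays and bars are mean ± SD. Zfp281 and Zfp568 were higher on all 100 µM arrays than on any other array, Zfp322a and Zfp277 were lower there, and Zfp59 was at most 5.54 on the PBS arrays.

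The calls of the other genes that rose at 100 µM were each lost under at least 3 alternatives. Zfp91, a ubiquitin ligase linked to NF-kB signalling, averaged 397 ± 122 on the 5 mM arrays (SD, n = 5), 751 ± 189 on the 100 µM arrays (n = 4) and 429.9 ± 86.7 on the PBS arrays (n = 3) and changed by log2 0.77 (adjusted p = 0.0373). The Zfp91 call was lost without 100 µM replicates 2, 3 or 4 or PBS replicates 2 or 3 (adjusted p = 0.0747 to 0.136), or after median scaling, with no filter or without a variance trend (adjusted p = 0.0546 to 0.17). Its dimmer probe set rose against PBS by log2 0.51 at 5 mM (adjusted p = 0.0411) and by log2 0.52 at 100 µM (adjusted p = 0.0278). Zfp207 (BuGZ), a kinetochore and spindle protein that binds BUB3, averaged 1224 ± 213 on the 5 mM arrays (SD, n = 5), 1369 ± 53.0 on the 100 µM arrays (n = 4) and 1002 ± 246 on the PBS arrays (n = 3) and changed by log2 0.47 (adjusted p = 0.0455). The Zfp207 call was lost without 5 mM replicates 1 or 5, 100 µM replicates 1, 2, 3 or 4 or PBS replicates 2 or 3 (adjusted p = 0.0542 to 0.195), or after median scaling, with no filter, without a variance trend or with only the compared groups (adjusted p = 0.0509 to 0.338), and the log2 value was 0.28 after median scaling. Zfp148, which binds GC-rich promoters, averaged 170.4 ± 26.4 on the 5 mM arrays (SD, n = 5), 205 ± 39.8 on the 100 µM arrays (n = 4) and 125 ± 24.0 on the PBS arrays (n = 3) and changed by log2 0.66 (adjusted p = 0.02). The Zfp148 call was lost without 100 µM replicate 4 or PBS replicates 2 or 3 (adjusted p = 0.0542 to 0.0802), or after quantile normalization or after median scaling (adjusted p = 0.0519 to 0.112). Zfp651 changed by log2 0.86 (adjusted p = 0.0358). The Zfp651 call was lost without 100 µM replicates 1, 2 or 4 or PBS replicates 1 or 2 (adjusted p = 0.0536 to 0.186), or after quantile normalization, after median scaling, with no filter, with array weights or with only the compared groups (adjusted p = 0.0606 to 0.0805), and the log2 value was 0.48 without PBS replicate 1 and 0.57 with 4 times the offset. On chromosome 17, Zfp758 changed by log2 0.77 (adjusted p = 0.0191). The Zfp758 call was lost without 100 µM replicate 1 or PBS replicate 3 (adjusted p = 0.0519 to 0.0836), or after quantile normalization (adjusted p = 0.0553). Zfp51 and Zfp97, read by probe sets shared with related genes and so uncertain, changed by log2 0.65 (adjusted p = 0.0367) and log2 0.56 (adjusted p = 0.0384). For Zfp51 the call was lost without 100 µM replicates 1, 2 or 3 or PBS replicates 1, 2 or 3 (adjusted p = 0.055 to 0.12), or after quantile normalization, after median scaling, with no filter or with only the compared groups (adjusted p = 0.0602 to 0.115), and for Zfp97 without 100 µM replicates 1, 2 or 3 or PBS replicates 2 or 3 (adjusted p = 0.0752 to 0.131), or after median scaling, with no filter, without a variance trend or with only the compared groups (adjusted p = 0.0507 to 0.214). The Zfp97 log2 value was 0.37 after median scaling. Just short of the threshold were Zfp90 at log2 -1.17 (adjusted p = 0.0542), whose 100 µM arrays read 47.9, 3.32, 3.55 and 20.6, Zfp213 at log2 0.59 (adjusted p = 0.0577), Zfp362 at log2 0.92 (adjusted p = 0.0584), Zfp871 at log2 0.50 (adjusted p = 0.0682) and Zfp644 at log2 0.33 (adjusted p = 0.0742). Each of these passed under 2 to 4 alternatives.

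Between the doses, 8 of the 77 Zfp genes were higher at 5 mM than at 100 µM, 19 were lower and 50 did not pass. The 27 genes are 35.1% of the members, against 29% of all tested genes (13.8% higher and 15.2% lower), and the difference between these shares was not tested. The members' median log2 difference was -0.18, against -0.04 over all genes. With median scaling 11 were higher and 13 lower, and with quantile normalization 11 were higher and 14 lower. The members' median lay 0.12 to 0.14 below that of all genes under the deposited and both other scalings. In the same comparison, 18 of 22 primitive endoderm markers were lower at 5 mM, with a median of -2.58, and their part in the differences of Zfp genes was not tested.

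Among RNA-binding and chromatin factors, Zfp106, an RNA-binding protein needed by motor neurons in mice, read 287, 222, 299, 359.6 and 319 on the 5 mM arrays, 984, 450.0, 404 and 665 on the 100 µM arrays and 415, 577 and 429 on the PBS arrays. The 5 mM arrays lay below all others. Its log2 difference was -0.98 ± 0.22 (SE) (adjusted p = 0.00317), while a probe set of similar brightness had a log2 value of -0.03 (adjusted p = 0.943). Zfp644, a partner of the histone methyltransferases G9a and GLP, read 786, 819, 992, 961 and 959 on the 5 mM arrays, 1241, 1227, 1329 and 1143 on the 100 µM arrays and 1098, 1028 and 829.8 on the PBS arrays. The 100 µM arrays were the highest. Its log2 difference was -0.45 ± 0.11 (SE) (adjusted p = 0.00724). The Zfp644 call was lost after median scaling (adjusted p = 0.0856). Zfp326, which couples splicing to transcript elongation, came close without passing, at log2 -0.70 (adjusted p = 0.0511), and passed under 8 of 23 alternatives, with 81.9, 56.1, 146, 162 and 137 on the 5 mM arrays against 196, 172, 164 and 206 on the 100 µM arrays. Zfp91 was lower at 5 mM, with log2 -0.92 (adjusted p = 0.00584), as was Zfp131, with log2 -0.84 (adjusted p = 0.0261), the second lost without 5 mM replicates 1 or 2 or 100 µM replicates 1 or 4 (adjusted p = 0.0628 to 0.102). On the dimmer probe set of Zfp91 the doses overlapped. That probe set read 189, 204, 156, 152 and 149 at 5 mM and 187, 166, 159 and 168 at 100 µM. Zfp703, a corepressor of the NET family, was lower at log2 -0.92 (adjusted p = 0.0291). The Zfp703 call was lost without 5 mM replicates 2, 3 or 4 or 100 µM replicates 1 or 2 (adjusted p = 0.0502 to 0.0882), and the log2 value was -0.56 with 4 times the offset.

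On chromosome 17, Zfp101 read 41.8, 34.7, 31.1, 44.6 and 42.1 on the 5 mM arrays, 103, 59.6, 78.0 and 57.7 on the 100 µM arrays and 53.0, 45.7 and 49.9 on the PBS arrays. The 5 mM arrays were the lowest and the 100 µM arrays the highest, with no overlap among the 3 groups. Its log2 difference was -0.77 ± 0.20 (SE) (adjusted p = 0.00945). Zfp97 differed by log2 -0.73 (adjusted p = 0.00325). Zfp472 differed by log2 -0.69 (adjusted p = 0.0139). The Zfp472 call was lost without 100 µM replicates 1 or 3 (adjusted p = 0.0506 to 0.0559). Zfp213 differed by log2 -0.57 (adjusted p = 0.0342). The Zfp213 call was lost without 5 mM replicates 1 or 4 or 100 µM replicates 1, 2 or 3 (adjusted p = 0.064 to 0.102), or after quantile normalization, after median scaling or with no filter (adjusted p = 0.0563 to 0.0623). Zfp758 and Zfp51 were lower at log2 -0.55 (adjusted p = 0.0465) and log2 -0.53 (adjusted p = 0.0453). The call of Zfp758 was lost without 5 mM replicates 1, 4 or 5, 100 µM replicates 1, 3 or 4 or PBS replicate 2 (adjusted p = 0.0554 to 0.143), or after quantile normalization, after median scaling, with a floor in place of the offset, with no filter or with only the compared groups (adjusted p = 0.0513 to 0.0955), and that of Zfp51 without 5 mM replicates 2, 3, 4 or 5, 100 µM replicates 1, 2 or 3 or PBS replicates 2 or 3 (adjusted p = 0.0523 to 0.148), or after quantile normalization, after median scaling, with no filter, with array weights or with only the compared groups (adjusted p = 0.0507 to 0.106). Elsewhere Zfp617 and Zfp954 were lower at log2 -0.61 (adjusted p = 0.0325) and log2 -0.45 (adjusted p = 0.0317). The first was lost without 5 mM replicates 1, 2, 3 or 5 or 100 µM replicates 1, 3 or 4 (adjusted p = 0.0501 to 0.103), or after quantile normalization, after median scaling or with no filter (adjusted p = 0.0563 to 0.0826), and the second without 5 mM replicates 4 or 5 or 100 µM replicates 1 or 2 (adjusted p = 0.063 to 0.0923), or after quantile normalization, after median scaling or with no filter (adjusted p = 0.051 to 0.128). With 4 times the offset the Zfp617 log2 value was -0.40.

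Of the genes that were higher at 5 mM than at 100 µM, Zfp322a, Zfp105 and Zfp277 are described above. Zfp239, a short zinc-finger protein also called MOK-2, read 106, 152, 103, 191 and 129 on the 5 mM arrays, 68.5, 81.4, 69.8 and 75.5 on the 100 µM arrays and 98.8, 90.1 and 145 on the PBS arrays. The 100 µM arrays were the lowest of the 3 groups. Its log2 difference was 0.77 ± 0.19 (SE) (adjusted p = 0.00716). Zfp60, of the chromosome 7 genes, averaged 37.8 ± 7.83 on the 5 mM arrays (SD, n = 5), 11.7 ± 4.75 on the 100 µM arrays (n = 4) and 16.99 ± 13.8 on the PBS arrays (n = 3) and differed by log2 1.15 (adjusted p = 0.0153). The Zfp60 call was lost without 100 µM replicate 1 (adjusted p = 0.0507), and the log2 value was 0.59 with 4 times the offset. Zfp292, a very large factor, averaged 855 ± 173 on the 5 mM arrays (SD, n = 5), 588 ± 66.8 on the 100 µM arrays (n = 4) and 786 ± 149 on the PBS arrays (n = 3) and differed by log2 0.52 (adjusted p = 0.0179). The Zfp292 call was lost without 100 µM replicate 4 (adjusted p = 0.0584). Its dimmer probe set had a log2 value of 0.05 (adjusted p = 0.853). Zfp444 differed by log2 0.60 (adjusted p = 0.0372), lost without 5 mM replicates 2, 3, 4 or 5 or 100 µM replicates 2 or 3 (adjusted p = 0.0578 to 0.111), or with no filter (adjusted p = 0.0546), and Zfp740 by log2 0.39 (adjusted p = 0.0254). The Zfp740 call was lost without 5 mM replicate 5 or 100 µM replicates 1, 2 or 3 (adjusted p = 0.0523 to 0.0812). Besides Zfp326, the values nearest the threshold were those of Zfp90 at log2 1.01 (adjusted p = 0.052), Zfp871 at log2 -0.45 (adjusted p = 0.0602), Zfp30 at log2 0.47 (adjusted p = 0.0642) and Zfp54 at log2 -0.52 (adjusted p = 0.0675), which passed under 1 to 5 alternatives.

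**Figure D4:**
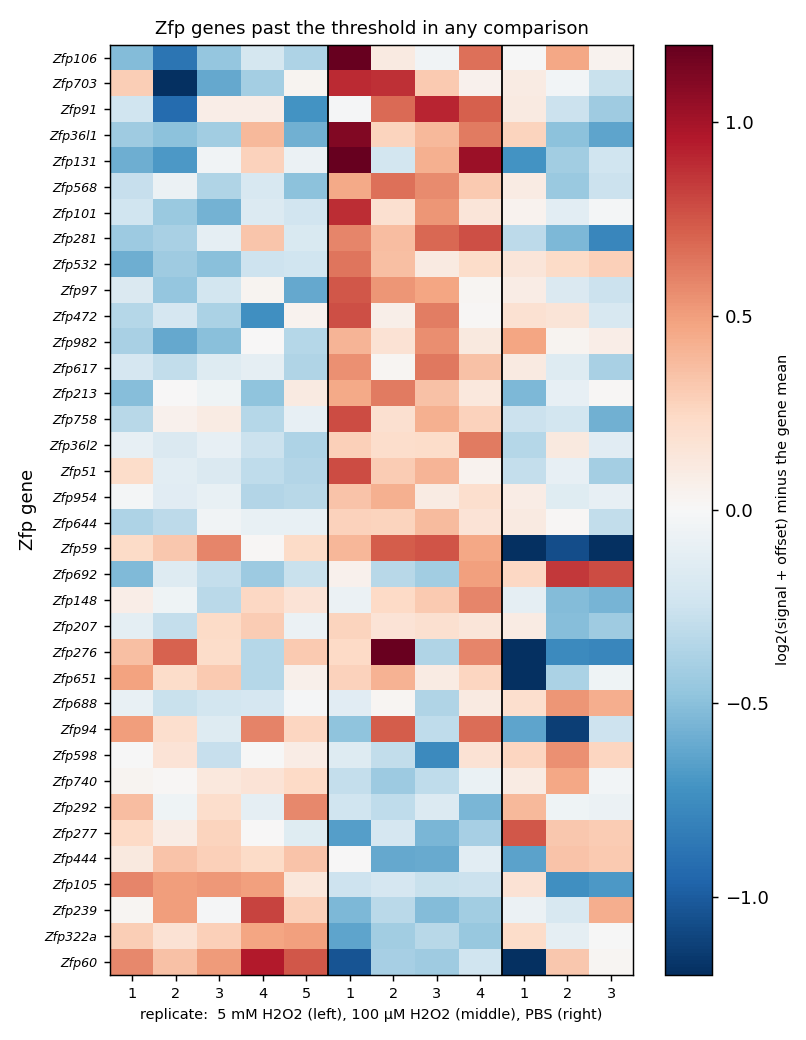
Log2(signal + offset) minus the mean of the gene for the 36 Zfp genes past the threshold in any comparison (rows, ordered by the difference of 5 mM minus 100 µM) on each array (columns, with 5 mM, 100 µM and PBS from left to right); red is above and blue below the mean of the gene. The rows from Zfp106 to Zfp644 have their highest group mean at 100 µM, the rows from Zfp598 to Zfp60 other than Zfp105 have their lowest there, and Zfp59 is lowest in PBS.

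By the RefSeq gene records, 19 of the 89 Zfp genes lie on chromosome 7 and 16 on chromosome 17, of which 18 and 13 were tested. None of the 13 on chromosome 17 passed at 5 mM against PBS in limma, where 1 had an unadjusted p under 0.05. At 100 µM against PBS, 4 were higher (Zfp36l2, Zfp51, Zfp758 and Zfp97) and 1 lower (Zfp598), and at 5 mM against 100 µM none was higher and 7 were lower. Their median log2 change was -0.08, 0.48 and -0.53 in these comparisons, against -0.02, -0.09 and 0.06 over the other genes of chromosome 17. The medians of -0.08 and -0.53 are the values of Zfp36l2, a gene of the CCCH kind described apart. It is also 1 of the 7 that were lower at 5 mM than at 100 µM. After median scaling the median was 0.31 at 100 µM against PBS, with 1 higher and 1 lower, and -0.43 at 5 mM against 100 µM, with 0 higher and 4 lower. Of these 13 genes 0% passed at 5 mM against PBS, 38.5% at 100 µM against PBS and 53.8% at 5 mM against 100 µM, against 11.8%, 27.8% and 27.8% of the other 338 genes of chromosome 17. The differences between these shares were not tested. The Zfp51, Zfp53 and Zfp97 probe sets are shared with related genes, so the 13 values are not independent. The 5 calls at 100 µM against PBS became 2 without PBS replicate 2 or 100 µM replicates 1 or 3 and 1 without PBS replicate 3, and the 7 calls between the doses became 3 without 100 µM replicate 1 and 4 without 100 µM replicate 3 or 5 mM replicate 4. On chromosome 7 the medians of the 18 Zfp genes were 0.23, 0.09 and -0.09, and the last 2 changed sign after median and quantile scaling (-0.06 and 0.02 after median scaling). There, 2 were higher and 1 lower at 5 mM against PBS, 3 higher and 1 lower at 100 µM against PBS, and 2 higher and 2 lower between the doses. These are 16.7%, 22.2% and 22.2% of the 18, against 10.6%, 23.1% and 25.3% of the other 498 genes of chromosome 7. After median scaling these splits were 1 and 2, 1 and 1, and 4 and 1. Their calls numbered 1 without PBS replicate 2 or 5 mM replicate 2 in the first of these, 2 without PBS replicate 2 in the second, and 2 without 5 mM replicate 4 or 5 in the third.

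**Figure D5:**
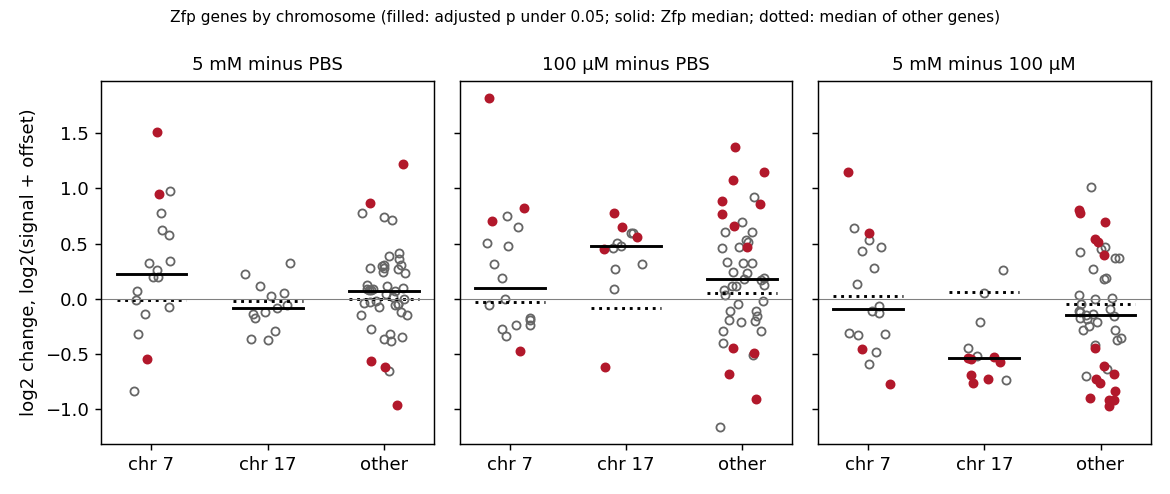
Log2 change (vertical axis) of the tested Zfp genes on chromosome 7 (18 genes), chromosome 17 (13) and other chromosomes (46) in the 3 comparisons; filled points have a limma adjusted p under 0.05, solid lines are Zfp medians and dotted lines the medians of the other genes there. On chromosome 17 the Zfp median was 0.48 at 100 µM against PBS and -0.53 at 5 mM against 100 µM.

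Partners of KRAB zinc-finger proteins were examined as a list of 30 genes, 19 of them tested. Against PBS, 4 were higher and none lower at 5 mM, and 1 was higher and 3 were lower at 100 µM. Between the doses, 8 were higher at 5 mM and 2 lower. These are 21.1%, 21.1% and 52.6% of the 19, against 12.2%, 24.6% and 29% of all tested genes. After median scaling 1 was higher and 6 lower at 100 µM against PBS, and 8 were higher and none lower between the doses. Their median log2 change was 0.19 for 5 mM minus PBS, 0.07 for 100 µM minus PBS (-0.12 after median scaling) and 0.18 for 5 mM minus 100 µM. The 4 calls at 5 mM against PBS became 2 without PBS replicate 2 or 3. Among the 4, those of Sumo3 (log2 0.50) and Uhrf1 (log2 0.37) were also lost after quantile normalization or median scaling. Those of Trim28 and Cbx5 were lost under no alternative. Trim28, the shared corepressor, averaged 14562 at 5 mM, 10318 at 100 µM and 4578 in PBS. Its log2 changes against PBS were 1.66 and 1.18, read in a range where the PBS arrays reached no more than 8904. Under the alternatives these changes were as low as 0.95 and 0.77. Between the doses Trim28 differed by log2 0.48 (adjusted p = 0.0198). That call was lost after quantile normalization or without 100 µM replicate 1 (adjusted p = 0.0554 to 0.263). Cbx5, which encodes the heterochromatin protein HP1 alpha, averaged 722 at 5 mM, 285 at 100 µM and 391 in PBS, with log2 0.93 for 5 mM minus PBS and log2 1.32 for 5 mM minus 100 µM. Uhrf1, which guides maintenance methylation of DNA, averaged 2134 at 5 mM, 999 at 100 µM and 1641 in PBS, with log2 -0.71 for 100 µM minus PBS and log2 1.09 between the doses. The deacetylase gene Hdac1 changed by log2 -0.85 and log2 0.73 in the same comparisons. Among 51 tested genes of other C2H2 families, 4 were higher and none lower at 5 mM against PBS, 13 higher and 1 lower at 100 µM against PBS, and 3 higher and 13 lower between the doses, with median log2 changes of 0.10, 0.27 and -0.09, against -0.01, 0.04 and -0.04 over all tested genes. The shares called were 7.84%, 27.5% and 31.4% of the 51, against 12.2%, 24.6% and 29% of all tested genes, shares below or near the background. After median scaling these splits were 4 and 0, 8 and 6, and 4 and 7, and the last median was 0.01. The 4 calls at 5 mM against PBS became 1 without PBS replicate 2 and 2 without 5 mM replicate 1, 4 or 5. The list of other C2H2 families shares genes such as Klf4, Klf6 and Egr1 with the immediate-early list. Klf4 is in the pluripotency list too, so these lists are not independent.

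Several probe sets of 1 gene did not always behave alike. Of the 16 Zfp genes with more than 1 tested probe set, 10 had a probe set that passed in a comparison beside another that did not. For Zfp787 the brightest probe set, shared with related genes, varied from 22.6 to 210 on the 5 mM arrays and did not pass, while its other 2 probe sets rose at 5 mM against PBS by log2 1.15 (adjusted p = 0.00444) and 1.01 (adjusted p = 0.031). Zfp930 had a log2 value of 0.01 on its brighter, shared probe set and a log2 change of 0.58 (adjusted p = 0.045) on the dimmer one in that comparison. A dimmer probe set of Zfp30 was higher at 5 mM than at 100 µM by log2 0.83 (adjusted p = 0.0428), and that of Zfp568 had a log2 value of 0.34 (adjusted p = 0.453). Of the 12 genes below the filter (Zfp14, Zfp282, Zfp354a, Zfp398, Zfp40, Zfp46, Zfp467, Zfp503, Zfp612, Zfp799, Zfp92 and Zfp943), none had a probe set with a mean signal above 17.05. In all, 36 Zfp genes passed in at least 1 comparison and 41 in none.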

How the data were processed

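RNA of 12 samples was measured on 1-colour MG_U74Av2 arrays, with groups and replicate numbers taken from the sample titles. The deposited values are an intensity per probe set on a linear scale, and per the submitters' processing notes they are MAS5 signals. The sources used here give no MAS5 version, detection calls or scaling target. Trimmed means (2% at each end) agreed within 0.0196%, so the deposited scaling was kept. Arrays have no read depth, and their number limits the precision.

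Before taking log2, 10.1 units were added to each signal, the 20th percentile of all values, which understates the changes of dim genes. Control probe sets (66) were left out, and probe sets with a mean log2 value above the 30th percentile of the rest were tested, 8695 in all. Gene symbols came from the platform annotation, checked through RefSeq gene records (GRCm38.p6), which changed no Zfp symbol. Probe sets with several symbols (396, of which 6 include a Zfp symbol) named no gene. A gene was read by its probe set with the highest mean, which gave 6414 genes. The model (limma 3.58.1, R 4.3.3) had a mean for each group, used all 12 arrays and moderated the variances with a trend. Tests were two-sided, with Benjamini-Hochberg adjustment across all 8695 probe sets and a threshold of 0.05. Every adjusted p in the text is from limma. The steps were tested on simulated data. Promoter windows held the 250 bases before each RefSeq gene start.

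The members and gene lists were chosen with earlier results of these data known. Named were Zfp42, the Zfp36 family, members past the threshold in any comparison, the 5 with the brightest probe sets (Zfp42, Zfp982, Zfp207, Zfp644 and Zfp598), the 5 nearest misses per comparison and those whose probe sets disagreed. From the other gene lists, only some of the members with large changes past the threshold were named. Others with large changes were left out. They include the pluripotency genes Gbx2 (log2 -2.00) and Tbx3 (log2 1.69) at the lower dose against PBS. The immediate-early gene Ier3 (log2 -1.53) and the decay gene Xrn1 (log2 1.17) at the higher dose against PBS were left out too. So was the immediate-early gene Ccn2 (log2 -2.16) at the higher dose against the lower. Zfp57 and Nanog's levels beside Zfp281 were chosen after their values were seen. The alternatives, given in the closing section, changed the scaling, offset, filter, variance model, weights, arrays, probe set rule and member rule.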

Additional observations from a re-analysis of the deposited data

Results flagged for a closer look

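Among the 48 named genes, the 5 mM and 100 µM groups were each examined for a single array that stood far from the others, 96 groups in all, and 6 (6.25%) held one, where chance gives about 1 in 20. At 5 mM, Zfp105 read 288 on replicate 5, against 370.1 to 395 on the other arrays. Zfp36 read 57.0 on replicate 2, against 136 to 159 on the others. Zfp36l1 read 852 on replicate 4, against 432 to 484. Zfp787 read 22.6 on replicate 4, against 119 to 209.7. At 100 µM, both cases besides these were on replicate 4: Zfp36l2 read 839.9, against 629 to 660.4 on the other arrays, and Zfp930 read 316, against 420.5 to 437. The PBS group, with 3 arrays, was not examined in this way.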

How the results depend on the processing

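The count of Zfp genes past the threshold at 5 mM against PBS (8) became 15 with array weights and 5 with the replicate number as a block, and ranged from 2 to 9 when 1 array was left out. At 100 µM against PBS (21) it was 13 with only the compared groups and 9 to 21 with 1 array left out. At 5 mM against 100 µM (27) it was 19 to 30 with 1 array left out. The samples share replicate numbers across groups, and the labels do not say whether equal numbers mark paired samples. Deviations from group means correlated at -0.18 to 0.15 for 10 same-numbered pairs and at -0.16 to 0.18 for 37 others. These ranges were alike, but with so few arrays per group they cannot show that the samples were unpaired. The replicate block gave 16 at 100 µM against PBS and 22 between the doses. Other counts stayed within 1.5 times the reported ones. The members' median at 100 µM against PBS, 0.24 as deposited, was 0.06 after median scaling. Of 144 values of named genes, 56 passed, of which 19 passed under every alternative and 37 were lost under at least 1. Of the rest, 25 passed under at least 1 alternative, and no called value changed sign. The losses listed for single genes leave out the replicate block. With it, the calls of Zfp276, Zfp688, Zfp94 and Zfp982 at 5 mM against PBS were also lost. At 100 µM against PBS it also ended those of Zfp148, Zfp207, Zfp36l2, Zfp688, Zfp91 and Zfp94. Between the doses it ended those of Zfp444, Zfp51, Zfp617, Zfp740, Zfp758 and Zfp954. The counts of alternatives under which near misses passed include the block. The filter and offset matter most for genes near 10.1 signal units, such as Zfp59 in PBS. The cause of these differences was not tested.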
